A study of Homo sapiens with 6 samples.

Results

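The regions described here were matrix-attached DNA regions found with a control hairpin and in neither of the other cell groups. They were chosen from the positions of the regions in 3 deposited lists. A region of the control hairpin (shLUC) list was kept when it shared no base with any region of the shHNRNPU list and none with any region of the untreated hPSC list. This left 9693 of the 39368 shLUC regions, or 24.6% of them, and they are called shLUC-only regions below. The 3 lists held 115751 regions in all. Since membership was set by absence from the other lists, the number of shLUC-only regions and their absence from those lists are descriptions and not findings.

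The study measured DNA held by the nuclear matrix (MAR-seq) in H1 cells, an established human embryonic stem cell line grown in mTeSR1 medium on Matrigel, to ask what HNRNPU and the matrix do in pluripotent cells. The 6 samples formed 3 groups of 2 samples: untreated H1 cells (hPSC), H1 cells carrying an shRNA (a short hairpin RNA, which lowers the matching mRNA) to HNRNPU (shHNRNPU), and H1 cells carrying an shRNA to luciferase (shLUC), a gene that human cells lack. All groups shared the same preparation: nuclei were isolated with Triton detergent and crosslinked in formaldehyde, and their DNA was then cut by the 6 restriction enzymes MspI, HaeIII, RsaI, AluI, BamHI and PvuII. The labels did not give the promoter, vector or number of clones of the hairpin lines.

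The nuclear matrix is the insoluble scaffold of protein and RNA that stays in a nucleus once soluble material and most of the digested DNA have been removed. DNA that stays with it is thought to lie at the bases of chromatin loops, and such matrix attachment regions have often been described as rich in A and T. HNRNPU, also named SAF-A (scaffold attachment factor A), is an abundant nuclear protein that binds such DNA through a SAP domain and RNA through an RGG domain.

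Among the genes followed as lists, 4 had a whole promoter window inside a shLUC-only region, and the 250 bases before their starts are shown as examples. Each sequence is a part of a member of 400 bp. In all, 75 genes had a whole window inside a member, and these 4 were picked because they are in the lists. A promoter window ran from 250 bases before a gene start to 50 bases after it. The sequences are from RefSeq for GRCh38.p14, are written 5′ to 3′ on the strand of the gene and stop at the base before the start. Capitals mark cut sites of the enzymes used on the nuclei: CCGG for MspI, GGCC for HaeIII, GTAC for RsaI, AGCT for AluI and GGATCC for BamHI. Each of these reads the same on both strands, the PvuII site CAGCTG contains an AluI site, and in GGCCGG an MspI and a HaeIII site overlap.
DNMT1 (maintenance DNA methyltransferase), chr19:10194954-10195203, minus strand: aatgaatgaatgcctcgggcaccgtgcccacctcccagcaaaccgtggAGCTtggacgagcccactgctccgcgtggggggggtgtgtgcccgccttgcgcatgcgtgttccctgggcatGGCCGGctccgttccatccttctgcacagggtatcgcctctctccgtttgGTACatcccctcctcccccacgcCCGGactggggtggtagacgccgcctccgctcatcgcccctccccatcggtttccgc
SMAD3 (transcription factor of the TGF-beta and Activin pathway), chr15:67065352-67065601, plus strand: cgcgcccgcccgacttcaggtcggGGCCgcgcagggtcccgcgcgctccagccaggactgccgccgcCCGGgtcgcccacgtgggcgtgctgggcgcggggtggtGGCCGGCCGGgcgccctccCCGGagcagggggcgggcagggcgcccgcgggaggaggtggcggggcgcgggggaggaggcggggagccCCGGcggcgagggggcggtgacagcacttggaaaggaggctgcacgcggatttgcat
ZNF513 (zinc-finger protein), chr2:27380735-27380984, minus strand: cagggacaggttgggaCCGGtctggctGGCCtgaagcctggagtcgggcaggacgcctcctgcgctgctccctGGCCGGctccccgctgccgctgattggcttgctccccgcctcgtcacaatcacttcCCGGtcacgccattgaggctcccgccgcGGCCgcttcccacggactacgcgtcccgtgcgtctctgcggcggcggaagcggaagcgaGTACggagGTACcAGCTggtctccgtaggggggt
ZNF84 (zinc-finger protein), chr12:133037259-133037508, plus strand: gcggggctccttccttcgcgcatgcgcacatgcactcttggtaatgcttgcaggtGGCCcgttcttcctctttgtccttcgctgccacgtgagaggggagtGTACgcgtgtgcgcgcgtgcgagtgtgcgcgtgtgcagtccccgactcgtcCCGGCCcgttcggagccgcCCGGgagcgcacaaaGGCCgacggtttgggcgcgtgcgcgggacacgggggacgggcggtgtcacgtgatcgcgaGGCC

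All 4 windows were rich in G and C and dense in CG dinucleotides. Over the 300 bases of its window, DNMT1 had a GC content of 68.3% with 30 CG dinucleotides and 6 cut sites. SMAD3 had the highest GC content of the 4, 80.3%, with 44 CG dinucleotides and 9 cut sites. ZNF513 had a GC content of 70.7%, 33 CG dinucleotides and 11 cut sites. ZNF84 had a GC content of 69.3%, 46 CG dinucleotides and 7 cut sites. The region over the DNMT1 start (chr19:10194849-10195248) had no region of the shHNRNPU or hPSC list within 5 kb. The same was true of the regions over ZNF513 (chr2:27380661-27381060) and ZNF84 (chr12:133037167-133037566), whereas 1 shHNRNPU region lay within 5 kb of the SMAD3 region (chr15:67065315-67065714). Over all members only 25.0% had a region of either other list within 5 kb, so such a gap was usual and not particular to these promoters.

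All regions in all lists were 400 bp wide and carried no height, so each region counted as present or absent. With 1 list per group there was no replicate error, no test between groups or between parts of the lists was possible, and values are set side by side as descriptions. Intervals are 95% Wilson intervals. They cover counting error only, and neighbouring regions are not independent. Read depth is unknown, and the reduction of HNRNPU cannot be checked in region lists. Of the shLUC regions that overlapped the shHNRNPU list, 27865 of 27868 had exactly the same coordinates in both lists. Of those that overlapped the hPSC list, 1735 of 5609 did. The sources used here did not state how the positions were made equal between the hairpin lists, and what part this had in the number of shLUC-only regions was not tested.

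At the edge of the rule, 2 members touched a region of another list without sharing a base, at chr16:3058966-3059365 and chr7:10580059-10580458, and the next lay 13 bp away at chr5:173622838-173623237. In all, 37 members lay within 100 bp of a region of another list. Just outside the rule, a shLUC region at chr15:31200760-31201159 overlapped another list by 1 bp and one at chr4:6640228-6640627 by 2 bp. There were 98 shLUC regions that overlapped another list by under 100 bp.

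Most members were far from the edge. The median distance from a shLUC-only region to the nearest region of either other list was 11.1 kb (interquartile range 4.995 to 22.7 kb), and the farthest lay 1014 kb away. Only 467 members (4.82%) had such a region within 1 kb, 2426 (25.0%) within 5 kb and 70.6% within 20 kb. The median distance was 20.9 kb to the nearest shHNRNPU region and 18.4 kb to the nearest hPSC region. Within 5 kb, 1187 members (12.2%) had a shHNRNPU region and 1623 (16.7%) an hPSC region.

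The share of shLUC-only regions in genes was near that of regions in 1 list or in both hairpin lists, and below that of regions in all lists. Their centres fell inside a gene of any type in 66.0% of cases (interval 65.1 to 67.0), where genes covered 54.3% of the chromosome span. The share was 67.2% for the 24066 shLUC regions that were also in shHNRNPU but not in hPSC, 66.4% for the 5928 shHNRNPU-only regions and 63.6% for the 32021 hPSC-only regions. It was 73.4% (72.0 to 74.8) for the 3802 regions of the shLUC list that both other lists also held. Protein-coding genes held 54.5% of the members, and a further 9.96% lay in a long non-coding RNA gene and in no protein-coding gene. At the other extreme, 14.1% of the members (13.4 to 14.8) were over 100 kb from any protein-coding gene, against 16.7% of regions in both hairpin lists, 13.6% of shHNRNPU-only and 15.2% of hPSC-only regions. Of the members, 332 (3.43%) lay over 500 kb from one.

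**Figure D1:**
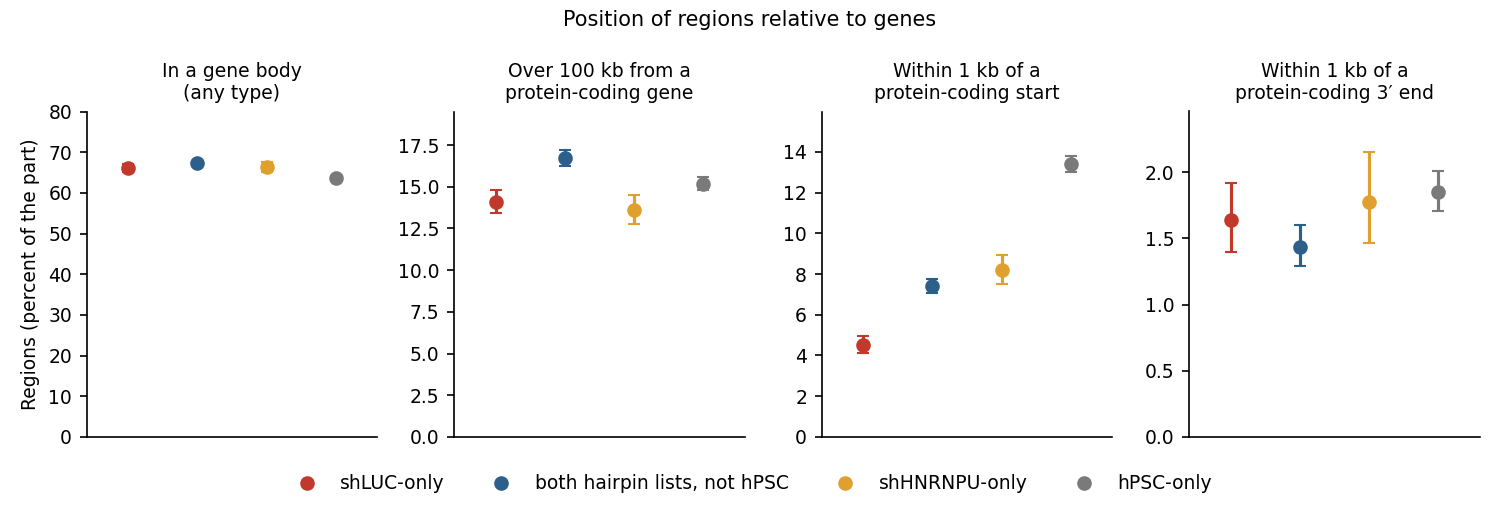
Percent of regions in 4 positions relative to genes, for shLUC-only regions, regions in both hairpin lists but not hPSC, shHNRNPU-only regions and hPSC-only regions, where points are shares of 1 list and bars are 95% Wilson intervals of counting error. In the panel of gene starts the shLUC-only regions sit lowest, at 4.51%, while in the panel of 3′ ends the interval of shLUC-only regions overlaps those of the other 3 parts.

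At gene starts the share of the shLUC-only regions was below that of the other parts of the lists. On the 23 chromosomes with promoter windows there were 9228 members, of which 416 (4.51%, interval 4.10 to 4.95) had their centre within 1 kb of the start of a protein-coding gene. The share was 7.42% (7.09 to 7.77) for regions in both hairpin lists but not hPSC, 8.19% (7.51 to 8.93) for shHNRNPU-only regions and 13.4% (13.02 to 13.8) for hPSC-only regions. It reached 42.9% for the regions that all 3 lists held. At the 3′ ends of protein-coding genes the shares lay close together. They were 1.64% (1.40 to 1.92) for shLUC-only regions, 1.44% for regions in both hairpin lists, 1.78% for shHNRNPU-only and 1.85% for hPSC-only regions. With both boundaries of a gene counted on all chromosomes, 613 members (6.32%, 5.86 to 6.83) were within 1 kb of one, against 9.12% in both hairpin lists and 15.2% of the shLUC regions that were not members. Positions that close to a gene boundary made up 2.36% of the span, so the share of the members was still above that of the span.

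Around the start, the shLUC-only regions lay evenly on both sides. The 250 bp just before the start held 118 member centres (1.28%) and the 250 bp just after it held 108 (1.17%). Regions in both hairpin lists were placed unevenly, with 343 (1.504%) before and 670 (2.94%) after the start. The hPSC-only regions had 4.81% before and 4.53% after, and the shHNRNPU-only regions 2.60% and 2.76%. Farther out, from 250 to 500 bp, 37 member centres lay before the start and 48 after it.

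**Figure D2:**
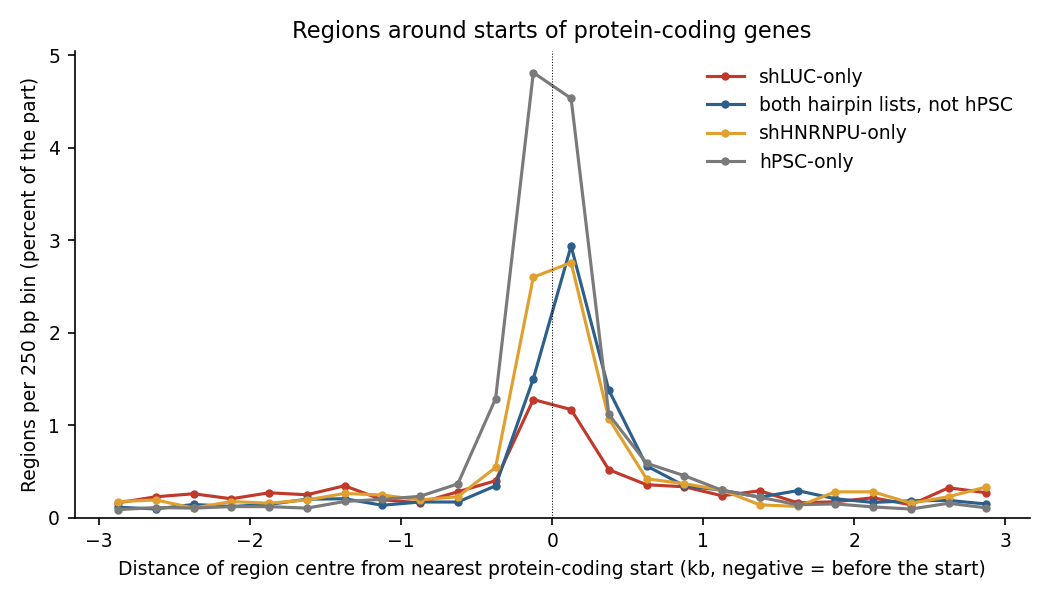
Percent of regions whose centre falls in each 250 bp bin within 3 kb of the nearest protein-coding gene start, with negative distances before the start. The line of shLUC-only regions peaks at 1.28% and 1.17% on either side of the start, and the line of regions in both hairpin lists peaks at 2.94% after it.

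A promoter window was overlapped by 314 members (3.403%, interval 3.05 to 3.79), against 5.47% of regions in both hairpin lists, 6.52% of shHNRNPU-only and 12.04% of hPSC-only regions. These members overlapped windows of 357 genes, of which 273 were protein-coding and 84 coded for long non-coding RNAs, and for 75 genes a whole window lay inside a member. Of the 376 distinct windows, 8 were also overlapped by a region that was no member. Besides DNMT1, SMAD3, ZNF513 and ZNF84, 14 genes of the lists followed here had part of a window in a member. DNMT3A (de novo DNA methyltransferase) had one member (chr2:25251914-25252313) over windows of 3 of its annotated starts. The calcium channel genes CACNA1D and CACNA2D3, the glutamate receptor gene GRM3, the neuronal adhesion gene CNTNAP2, AUTS2, the Activin receptor gene ACVR1C and SOX3 were also among them.

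The promoter windows overlapped by members were GC-rich, as were those of the other parts. Their median GC content was 68.2% (interquartile range 62.7 to 73.3), against 58.7% for all 34933 windows and 52.7% for windows with no region of any list. Windows overlapped by regions of both hairpin lists but not hPSC had a median of 73.3%, and windows of hPSC-only regions had 63.7%, so the members lay between these. The median number of CG dinucleotides was 29 in member windows, 35 in windows of both hairpin lists and 14 in all windows. The motif AATATAT, an A and T stretch of the kind described in matrix attachment regions, searched on both strands, was in 0% of the 376 member windows and in 2.63% of all windows. ATTA, also searched on both strands, was in 26.3% and 50.3%. Windows of both hairpin lists but not hPSC held them in 0.0640% and 19.1%, so the low shares were not particular to the members. These values describe promoter windows only, since no genome sequence was used for the regions away from starts.

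Cut sites are of interest because the enzymes removed the DNA that the matrix did not hold. The median number of cut sites was 8 in a member window, 10 in windows of both hairpin lists and 6 in all windows. MspI sites were in 90.7% of member windows and 63.0% of all windows, and HaeIII sites in 91.2% and 78.9%. RsaI sites were in 25.3% and 29.8%, AluI sites in 69.1% and 74.1%, BamHI sites in 6.91% and 6.83%, and PvuII sites in 17.3% and 17.9%. The MspI and HaeIII sites are made only of G and C. In windows of both hairpin lists but not hPSC, MspI sites were in 95.2% and HaeIII sites in 96.4%, above the member windows. Windows with no site at all were 0.798% of the member windows and 2.14% of all windows.

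Along the genome the shLUC-only regions were scattered among the other shLUC regions. The median distance from one member to the next nearest was 78.9 kb, and to the nearest shLUC region that was no member 26.8 kb. Another member lay within 10 kb of 781 members (8.06%, interval 7.53 to 8.62). The shLUC region that followed a member along the chromosome was also a member in 2410 of 9685 cases (24.9%, 24.0 to 25.8), and the one that followed another shLUC region was a member in 24.5% (24.1 to 25.0). Of 7283 unbroken runs of members, 5500 (75.5%) held a single region.

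The longest runs held 7 members. One lay between protein-coding genes at chr2:205829909-205977640, one at TPCN2, an ion channel gene of lysosomes (chr11:69055133-69106630), and one along 1004 kb of the X chromosome that held IGSF1, OR13H1, STK26 and FRMD7 (chrX:131157716-132161856). The span of the run at TPCN2 held 1 shHNRNPU and 1 hPSC region beside its 7 members. A run of 6 members began just before the start of CACNA2D3 (chr3:54122117-54626528) and held 1 shHNRNPU and 5 hPSC regions. Other runs of 6 lay over SPON2, CTBP1, MAEA and UVSSA (chr4:1208651-1369036) and over IPCEF1 and CNKSR3 (chr6:154296479-154557881).

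Every chromosome held members. Among the autosomes the share of shLUC regions that were shLUC-only ran from 22.98% on chromosome 5 (522 of 2272, interval 21.3 to 24.7) to 27.1% on chromosome 17 (405 of 1493, 24.9 to 29.4). On all autosomes but chromosome 17 the interval included the share of 24.6% over the list. The X chromosome was above this range, with 141 of 475 regions (29.7%, 25.8 to 33.9). The Y chromosome held 5 members among 33 shLUC regions. Members were sparse on both in absolute number, at 0.904 per Mb on X and 0.0875 per Mb on Y against 3.32 per Mb on the autosomes. This was not particular to the members. The shLUC, shHNRNPU and hPSC lists held 475, 459 and 556 regions on X (156 Mb) and 33, 31 and 24 on Y. Chromosome 7, of similar span to X (159 Mb), held 2200, 2094 and 2349.

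**Figure D3:**
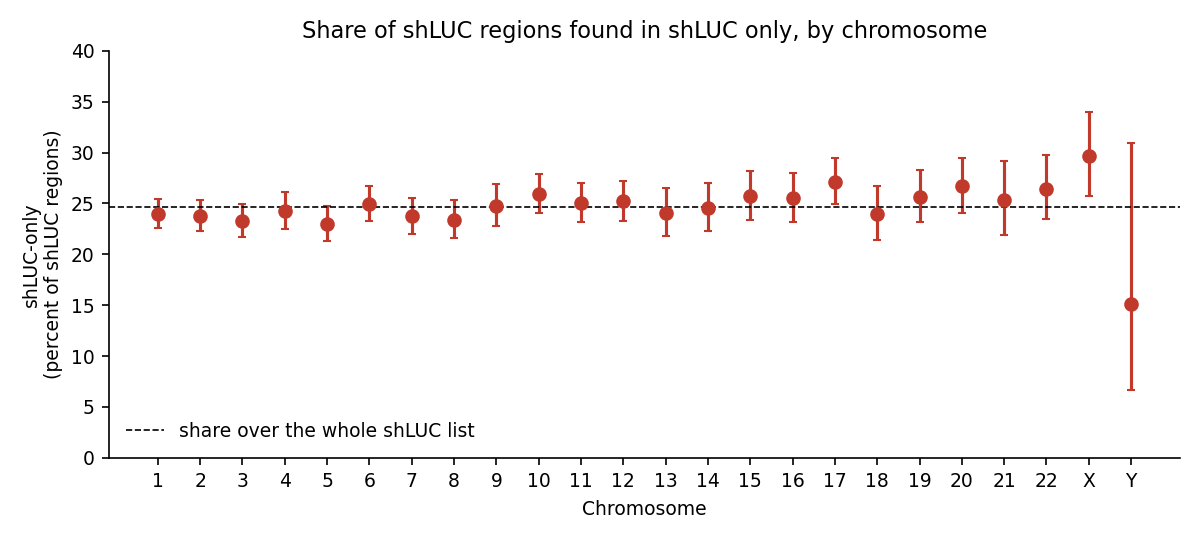
Percent of the shLUC regions of each chromosome that were shLUC-only, with 95% Wilson intervals of counting error, and the share over the whole list as a dashed line. The autosomes sit between 22.98% and 27.1%, X at 29.7% and Y, with 33 shLUC regions, at 15.2% with a wide interval.

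In windows of 1 Mb, 2559 of the 2912 windows with any region held at least 1 member, with a median of 3 and at most 19. The number of members per window followed the number of other shLUC regions (Spearman's rho 0.576), hPSC regions (0.619), shHNRNPU regions (0.612) and protein-coding genes (0.518). These are descriptions over 2912 windows, which share mappability and base composition with their neighbours. The share of shLUC-only among shLUC regions was 21.1% (19.5 to 22.8) in windows with no gene centre, 23.4% with 1 to 4, 24.6% with 5 to 9, 26.2% with 10 to 19 and 26.7% (25.5 to 27.9) with 20 or more. The share of shHNRNPU-only among shHNRNPU regions also rose over these windows, from 13.7% to 18.6%, and that of hPSC-only went from 81.9% to 79.6%.

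Toward the ends of the autosomes more of the shLUC regions were shLUC-only. Within 1 Mb of an end the share was 28.8% (298 of 1035, interval 26.1 to 31.6), from 1 to 2 Mb it was 32.4% (29.7 to 35.2) and from 2 to 5 Mb 28.1%. Beyond 20 Mb it was 23.6% (23.1 to 24.1). The shHNRNPU-only share of the shHNRNPU list was 18.5%, 19.7%, 19.3% and 15.5% at these distances, while the hPSC-only share of the hPSC list was 74.6%, 78.9%, 80.04% and 79.8%. For the shLUC list only, windows were also split by gene number. In windows with 0 to 4 gene centres the shLUC-only share was 28.4% within 5 Mb of an end and 22.6% farther away, with 5 to 9 it was 30.3% and 23.8%, and with 10 to 19 it was 32.4% and 25.1%. In windows with 20 or more the values were 26.8% and 26.6%. The share was higher near ends in windows with fewer than 20 gene centres, and the cause of this was not tested.

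**Figure D4:**
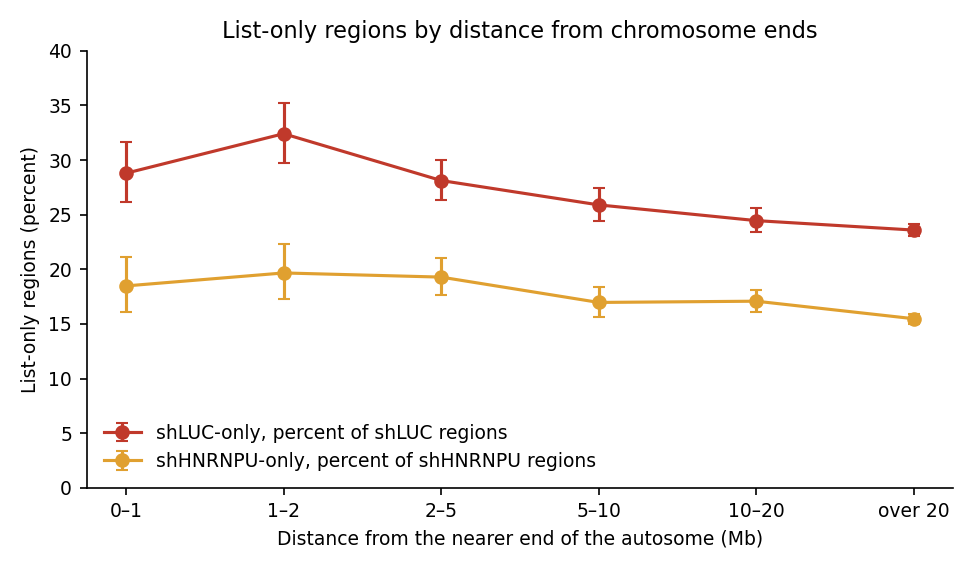
Percent of shLUC regions that were shLUC-only and percent of shHNRNPU regions that were shHNRNPU-only, by distance from the nearer end of the autosome, with 95% Wilson intervals of counting error. The shLUC-only share is 32.4% at 1 to 2 Mb and 23.6% beyond 20 Mb, and the shHNRNPU-only share is 19.7% and 15.5%.

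The 6 windows with the most members, a tie for the fifth place included, had their centres 0.5 to 1.83 Mb from the nearer chromosome end. The window at 82 to 83 Mb of chromosome 17 (chr17:82000001-83000000) held 19 members among 34 shLUC regions, with 21 shHNRNPU and 32 hPSC regions. It contains TBCD, FASN (fatty acid synthase) and CSNK1D. The window chr16:88000001-89000000, with ZFPM1, PIEZO1 and CBFA2T3, held 18 of 35. The window chr11:1000001-2000000, with the mucin genes MUC2, MUC5AC and MUC5B, held 18 of 44, and chr10:132000001-133000000, with INPP5A and STK32C, held 18 of 53. The window chr7:1-1000000, with PDGFA and SUN1, held 16 of 37, and chr20:62000001-63000000, with LAMA5 and GATA5, held 16 of 52. These windows were picked for their number of members, and their shares of 30.8% to 55.9% follow in part from that choice.

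In protein-coding genes, 5284 of 21952 shLUC regions (24.1%) were shLUC-only. They lay in 3844 of 20037 protein-coding genes (19.2%), of which 2813 held exactly 1 member and 68 held at least 5. In genes shorter than 10 kb the shLUC-only share was 16.7% (221 of 1320, interval 14.8 to 18.9), and in genes of 10 to 50 kb it was 23.2% (22.1 to 24.4). It was 24.8% for 50 to 100 kb, 25.1% for 100 to 300 kb, 24.6% for 300 to 1000 kb and 23.3% for longer genes. Per 100 kb of gene, the number of members fell with length from 0.830 in genes under 10 kb to 0.207 in genes over 1000 kb. The number of other shLUC regions also fell, from 4.13 to 0.680 per 100 kb, so the fall was not particular to the members.

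The genes with the most members were long. MAD1L1, a protein of the spindle assembly checkpoint, held 10 members among 19 shLUC regions, with 17 shHNRNPU and 9 hPSC regions over its 417 kb (chr7:1815795-2232945). PTPRN2, a receptor-type phosphatase protein of secretory granules, also held 10, among 29 shLUC, 26 shHNRNPU and 24 hPSC regions. PRDM16, a transcription factor of brown fat and blood stem cells, held 9 among 13 shLUC regions and had 6 in shHNRNPU and 6 in hPSC (chr1:3069203-3438621). Of the 29 shLUC regions of PTPRN2, 18 were in both hairpin lists, and 8 of its 26 shHNRNPU regions were shHNRNPU-only. Of its 24 hPSC regions, 20 were hPSC-only, where 32021 of 40106 were so over the whole hPSC list. PRDM16 had fewer regions in both other lists than in shLUC. The genes here were picked for their number of members, which neither other list holds. Lower counts in those lists follow in part from that choice.

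Other genes with 8 members code for proteins known from the brain. CACNA2D3, an auxiliary subunit of voltage-gated calcium channels, held 8 members among 14 shLUC regions, with 5 shHNRNPU and 11 hPSC regions. CDH4, a cadherin of the retina and brain, held 8 among 22 shLUC regions, with 16 shHNRNPU and 9 hPSC regions. DLGAP1, a scaffold protein of the postsynaptic density, held 8 among 22, with 19 and 20. CACNA2D3 and CDH4 had fewer regions in shHNRNPU than in shLUC by 9 and 6. These genes too were picked for their number of members, so the lower counts follow in part from that choice.

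A further 5 genes held 7 members each. TBCD, a cofactor of tubulin folding, held 7 among 11 shLUC regions, with 5 shHNRNPU and 5 hPSC regions over 194 kb (chr17:82752065-82945914). SORCS2, a sorting receptor, held 7 among 14, with 12 and 12. AGAP1, a regulator of Arf GTPases, held 7 among 16, with 11 and 18. PRKG1, a kinase activated by cyclic GMP, held 7 among 19, with 14 and 18, and AUTS2, a gene of brain development, 7 among 21, with 18 and 21. The first member in AUTS2 (chr7:69598358-69598757) had its centre 0.082 kb from the gene start, and the others lay 319 to 1111 kb into the gene.

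Within a gene, members could be close to each other or spread over its whole length. In PRDM16 the 9 members ran from chr1:3112666-3113065 to chr1:3360810-3361209, and 2 of them, chr1:3205802-3206201 and chr1:3206747-3207146, lay under 1 kb apart. In TBCD, chr17:82890204-82890603 and chr17:82891329-82891728 were also neighbours. In MAD1L1 the members lay between 6.01 and 374 kb from the gene start.

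Among the 106 genes with at least 12 shLUC regions the share of shLUC-only ranged from 0 to 69.2%, with a median of 26.3%. It was highest in PRDM16 (69.2%, interval 42.4 to 87.3), CACNA2D3 (57.1%) and MAD1L1 (52.6%), and it was 50% in SORCS2 and KIAA1217. It was lowest in BTBD9, with 0 of 12 regions, and in GRIK4, a kainate receptor gene, with 0 of 12 (interval for each 0 to 24.2). APBB2 had 1 of 13, and ATP8A2 and PDE1C had 1 of 12 each. BTBD9 had 12 regions in shLUC and 14 in shHNRNPU, and APBB2 had 13 and 12. Both ends of this ranking were picked by the share itself, so such values follow in part from that choice. The intervals of most of these genes include 24.1%, so at this number of regions most single genes could not be told from the share over all genes.

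Of the 10114 genes with a shLUC region, 1211 had members only. Most of these held a single region: 5328 genes had exactly 1 shLUC region, and in 1066 of them it was a member. Over all protein-coding genes 24.1% of shLUC regions were members, so these counts are descriptions and not findings about the genes. In 522 of the 1211 no region of the other lists was found either. RIN3, which codes for an exchange factor of Rab GTPases, held 3 members and no region of another list. A2ML1, ATP6V1B1, BCL2L1, CACNG4, CARD9 and CDK11B held 2 each with none in the other lists. BCL2L1 codes for the anti-apoptotic protein BCL-XL.

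Of the 29 pluripotency regulators measured, 18 held a shLUC region and 8 held a member, where 19.2% of all protein-coding genes held a member. Of the 30 shLUC regions of these regulators, 9 were shLUC-only (30%, interval 16.7 to 47.9), read against 24.1% over all protein-coding genes. PODXL, a surface glycoprotein of pluripotent cells, held 2 shLUC regions, both members, with 0 in shHNRNPU and 4 in hPSC at other positions. LIN28A, an RNA-binding protein that blocks let-7 maturation, held a member as its only region in all 3 lists. KLF5 and SALL4, both transcription factors, each held 1 member, no other shLUC region, 0 shHNRNPU regions and 1 hPSC region. TERT, the catalytic subunit of telomerase, held 1 member among 4 shLUC regions. In HNRNPU itself there was no member, with 1 shLUC, 2 shHNRNPU and 1 hPSC regions.

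Among genes of the nuclear matrix, lamina and hnRNP proteins, 10 of 35 held a member, where 19.2% of all protein-coding genes held a member. Of the shLUC regions of this list, 11 of 51 were shLUC-only (21.6%, interval 12.5 to 34.6), close to the 24.1% over all protein-coding genes. NUMA1, a matrix and spindle pole protein, held 2 members among 3 shLUC regions, with 1 shHNRNPU and 4 hPSC regions. CTCF, the insulator protein at chromatin loop anchors, held 1 shLUC region, which was a member, 0 in shHNRNPU and 2 in hPSC. SUN1, LMNB1, MATR3 and SAFB, which code for proteins of the nuclear envelope, lamina and matrix, each held 1 member. Cohesin and condensin genes held 10 members among 39 shLUC regions (25.6%, interval 14.6 to 41.1), among them 2 each in HDAC8, NCAPD3 and STAG1. This share too was close to 24.1%.

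The genes of Polycomb and DNA methylation had 20 members among 61 shLUC regions (32.8%, interval 22.3 to 45.3). These members lay in 14 of 34 genes, where 19.2% of all protein-coding genes held a member. TET1, which oxidises methylcytosine, held 2 shLUC regions, both members, with 0 in shHNRNPU and 1 in hPSC. DNMT3A held 2 members among 3 shLUC regions, with 1 shHNRNPU and 6 hPSC regions. PCGF3, a Polycomb subunit, and UHRF1, which brings DNMT1 to newly copied DNA, each held 2 members among 3. The interval of this list includes the share of all protein-coding genes. The chromatin remodelling list was lower, at 14 of 77 (18.2%), with 2 members each in SMARCC1 and SMARCA2.

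Collagens had the highest share among lists with 20 or more shLUC regions, 32 of 92 (34.8%, interval 25.8 to 44.9). COL23A1 and COL5A2 held 4 members each among 7 shLUC regions, COL18A1 held 3 among 5 and COL11A1 2 of 2. Ion channel genes had 56 of 194 (28.9%), with 8 members in CACNA2D3. Cadherins had 21 of 76 (27.6%), with 8 in CDH4 and 5 in CDH13. Receptors for glutamate and GABA had 37 of 151 (24.5%), and genes at common fragile sites had 58 of 240 (24.2%), both close to the share over all genes. A region could count in more than 1 list.

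Signalling pathways had shares under the 24.1% of all protein-coding genes, but the interval of each included it. The FGF pathway had 4 of 34 (11.8%, interval 4.67 to 26.6) and the WNT pathway 14 of 91 (15.4%, 9.39 to 24.2). The TGF-beta, Activin and BMP pathway had 10 of 60 (16.7%, 9.31 to 28.0). In these, LRP6, a WNT co-receptor, held 2 members among 4 shLUC regions, and SMAD2, a partner of SMAD3, held 2 among 5. FGF3 and FGF9, both ligands, each held a member as their only region in the 3 lists. Neuronal adhesion genes had 59 of 301 (19.6%), with 6 members in TENM3 and 5 each in ADGRL3, CNTNAP2 and TENM4. Protocadherins, whose gene records overlap, had 9 of 60 distinct regions (15.0%).

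HOX genes, the patterning genes of the body axis, had the lowest share of the lists with 20 or more shLUC regions, 1 of 24 (4.17%, interval 0.739 to 20.2). HOX genes are short, with a median of 3.79 kb, and in all genes under 10 kb the share was 16.7%. The 1 member lay in both HOXC4 and HOXC5, whose gene records overlap. Zinc-finger ZNF genes had 85 of 364 (23.4%), led by ZNF423 with 5 members, and SOX genes 7 of 25, with 2 each in SOX13 and SOX5. The smaller lists held 2 of 16 shLUC regions for olfactory receptors, 5 of 16 for keratins, 2 of 5 for histone genes and 0 of 10 for ribosomal proteins. Over the 22 lists, the intervals of counting error lay above 24.1% for collagens only and below it for HOX genes. No list was tested.

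**Figure D5:**
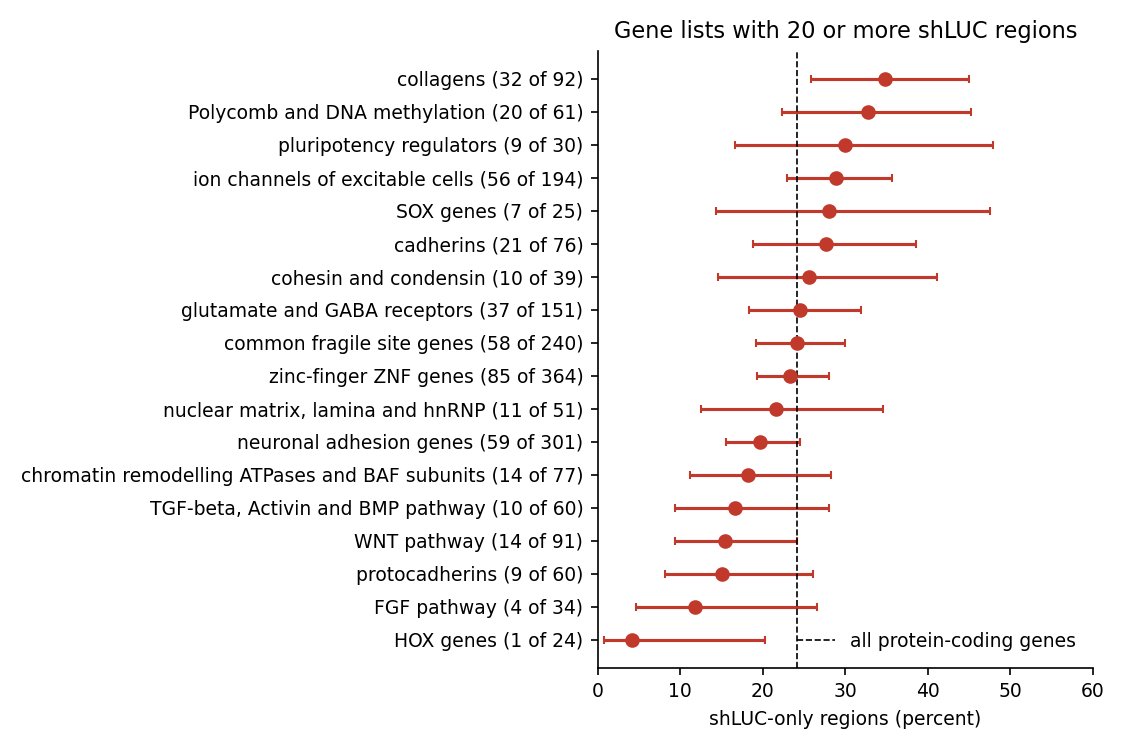
Percent of the shLUC regions in the genes of each list that were shLUC-only, for lists with 20 or more shLUC regions, with 95% Wilson intervals of counting error and the share over all protein-coding genes (24.1%) as a dashed line. Collagens are highest at 34.8% and HOX genes lowest at 4.17%, and most intervals cross the line.

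The 9693 members overlapped 6 of 1562 annotated microRNA hairpins, those of MIR4260, MIR1247, MIR212, MIR4444-1, MIR3129 and MIR3621. The 24066 regions in both hairpin lists but not hPSC overlapped 26 of these hairpins. The 5928 shHNRNPU-only regions overlapped 5, the 32021 hPSC-only regions 24 and the 3802 regions that all lists held 10. The parts differ in size, so these counts cannot be compared directly.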

How the data were processed

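MAR-seq was read as paired ends beside a sonicated input, per the labels. The deposited files held 1 list of 400 bp regions per group. The score column deposited by the authors was 0 for all regions and was not used as a measurement. The submitters' processing notes name cutadapt, Bowtie2, SAMtools, MACS2, deepTools and hg38. Their versions and settings, the joining of the 2 samples of a group, the use of the input and the tag rp1 in the hPSC region names were not given in the sources used here. The labels give total RNA as the molecule, although DNA was extracted. The paper supplied with the series described other experiments, and no method was taken from it.

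Lists were matched to groups by name and coordinates were counted from 1. A region was shared when it overlapped another by at least 1 bp, and it was placed in a gene by its centre. Genes, starts and promoter sequences were from RefSeq (GRCh38.p14), with promoter windows for 15843 of 20037 protein-coding genes. The gene table gave no exons, so exon, intron and UTR positions were not analysed here. Gene density was counted as centres of protein-coding genes in windows of 1 Mb. Shares were given with 95% Wilson intervals, and no test was run.

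Named were the 12 protein-coding genes with the most members, the 6 with the highest and the 6 with the lowest share among genes with at least 12 shLUC regions, up to 4 leading genes of each of 22 gene lists, the 5 windows of 1 Mb with the most members (and a tie with the fifth), and the list genes with a whole promoter window in a member. Other genes named were chosen after their values were seen. Some genes that meet these rules are not reported here. The members, lists and rules were chosen with earlier results of these data known, and the profile around starts, the 3′ ends, the distance from chromosome ends, the runs and the genes with regions in no other list were chosen after the lists were seen. The alternatives were an overlap of at least 50%, a margin of 1 kb, autosomes only and other definitions of gene body, gene end, neighbour and promoter overlap. The code was tested on simulated lists and returned the planted answer in 5 of 5 checks. Tables were computed in Python 3.11.15 (pandas 2.3.3, numpy 2.4.6) and plots drawn in matplotlib 3.10.9.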

Additional observations from a re-analysis of the deposited data

How the results depend on the processing

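No paired analysis was possible because the 2 samples of a group are represented by 1 deposited list, which also leaves no replicate to omit. The number of shLUC-only regions was 9946 when sharing needed an overlap of at least 50% of both regions, 9226 when no region of another list could lie within 1 kb, and 9547 on the autosomes. Of 29 recomputed values, 21 stayed close to their main value. Shares did so within their counting interval, and counts, those of the 12 genes with the most members among them, within 1.5 times. The other 8 were as follows. The gene body share was 67.3% with any overlap and 54.5% with protein-coding genes only. The gene end share was 7.12% with the 50% overlap, 5.68% with the 1 kb margin and 19.1% within 5 kb. The neighbour share was 36.5% within 50 kb. The promoter share was 0.780% for whole windows and 4.15% with the 50% overlap. The wider distances and the whole window change the quantity itself; for the 50% overlap and the margin the cause was not tested. With the 50% overlap and with the margin, the shLUC-only share at gene ends and promoters stayed below that of regions in both hairpin lists but not hPSC (gene ends, 7.12% against 10.6% and 5.68% against 7.88%). Read depth and region heights are unknown here, so regions just under a calling threshold could not be told from absent ones.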
